A study of Arabidopsis thaliana with 8 samples.

Results

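Early tetrapyrrole synthesis was followed in 10 nuclear genes of Arabidopsis thaliana, chosen by locus as the enzymes that carry the pathway from glutamyl-tRNA to protoporphyrinogen: HEMA1, HEMA2, GSA1, GSA2, HEMB1, HEMC, HEMD, HEME1, HEME2 and HEMF1. All 10 were present among the 27416 loci with a counted coding region. The libraries came from plants in blue light or in the dark, each assayed as ribosome footprints and as mRNA, with 2 libraries in each of the 4 groups. Ribosome footprints are the stretches of mRNA that ribosomes shield from RNase I, so that the footprint count of a gene reports ribosomes on its coding region, and footprints set against mRNA give translational efficiency. The labels state no tissue, plant age, ecotype, genotype, light intensity or duration.

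Tetrapyrroles are the ring molecules behind chlorophyll, heme, siroheme and the chromophore of phytochrome. In plants the pathway runs in the plastid. Glutamate bound to its tRNA is reduced and rearranged to 5-aminolevulinic acid (ALA), ALA units are joined into porphobilinogen and then into the ring, and the ring is decarboxylated and oxidised before the chlorophyll and heme branches part. Synthesis of ALA is known as the main control point, because free intermediates generate reactive oxygen in light. In dark-grown seedlings the pathway is held back at this point once protochlorophyllide has built up.

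Over the loci analysed, the footprint libraries held 2888624 to 4919808 counts and the mRNA libraries 688630 to 847469. Chloroplast genes took 45.2% to 48.7% of the mRNA counts, so nuclear genes rested on 331867 to 436399 counts per mRNA library. The median standard error (SE) of a log2 fold change was 0.513 in mRNA and 0.189 in footprints. All 11 root markers of a fixed list were counted in blue-light footprints and in every mRNA library, and 10 of the 11 in each dark footprint library, where PLT2 or NRT2.1 was at 0. Their summed footprint level was 385.4 and 374.3 CPM (counts scaled to a common library size) in blue light, against 513.9 and 524.4 CPM in the dark, and their summed mRNA level 289.7 and 344.3 CPM in blue light, against 321.5 and 394.6 CPM in the dark. The mRNA sums overlapped between the lights. In footprints CASP1 made up much of the sum, at a mean of 195.1 CPM in blue light and 278.5 CPM in the dark. SCR went the other way, at 52.4 and 31.5 CPM, and 2 of 8 tested markers had a positive log2 fold change. The part of such a shift in the values below was not tested, and with bulk samples fewer cells of a type and less RNA per cell cannot be told apart. Nothing in the labels ties the replicates to separate plants or cultures, and the p-values therefore reflect library-to-library spread, which may be technical.

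Across the 10 genes, the footprints of 6 rose in blue light and those of none fell (6 members had an unadjusted edgeR p under 0.05, as had 7176 of all 15788 genes tested), and the largest rise was at the entry of the pathway. The tests were edgeR quasi-likelihood F-tests with Benjamini-Hochberg adjustment over all genes tested, and a gene was called at an adjusted p under 0.05. In footprints 37.8% of all 15788 tested genes were called, 20.9% upward and 16.9% downward, so that 6 of 10 upward stands against 20.9%. In mRNA HEMA1 alone was called, as 1 of the 8 members that passed the filter on low counts, against 3.9% of 7822 genes called, 2.85% upward and 1.05% downward. Of these 8 members, 5 had an unadjusted p under 0.05, as had 1050 of the 7822 genes, and 7 had a positive log2 fold change, as had 51.69% of the genes. The median log2 fold change of the 10 members in footprints was 0.27, against -0.018 over all tested genes, and the median of the 8 tested members in mRNA was 1.002, against 0.026. Both blue-light libraries lay above both dark libraries in 6 of 10 members in footprints (33.6% of all tested genes) and in 6 of 8 in mRNA (22.5%). They lay below both dark libraries in 1 member, HEMB1, in footprints (33.9%) and in 0 of 8 in mRNA (19.9%). GSA2 passed the mRNA filter only through blue light, with 18 and 18 counts, against 7 and 8 in the dark. So did HEMD, with 11 and 16, against 10 and 8. GSA1, at 8 and 2 in blue light and 6 and 21 in the dark, and HEME1, at 2 and 10 and 7 and 6, were not tested. The mRNA counts and median of the 8 members therefore lean on this filter.

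**Figure D1:**
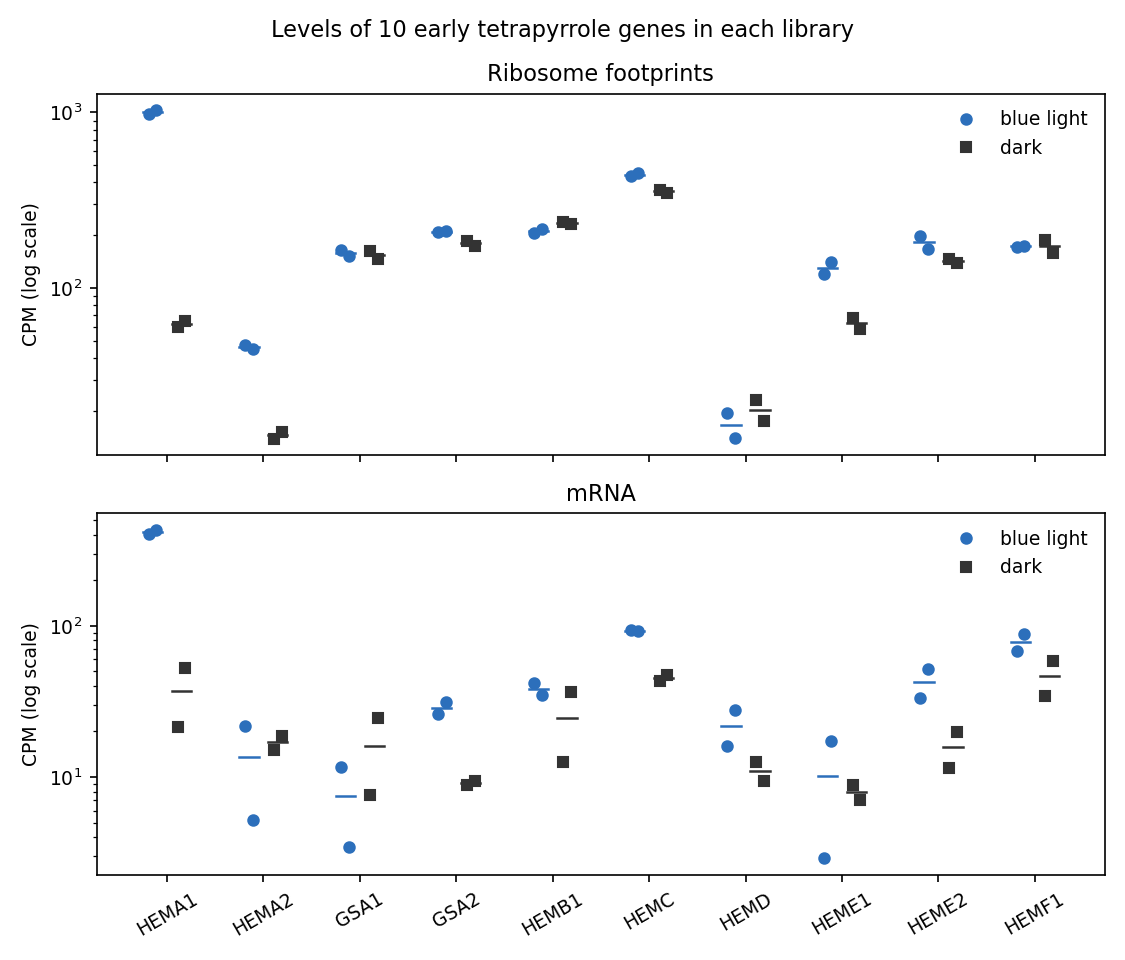
CPM on a log axis for each of the 10 genes in the 2 blue-light and 2 dark libraries, footprints above and mRNA below; points are libraries and short lines their mean. HEMA1 stands near 1006 CPM in blue-light footprints against 62.6 CPM in the dark, and most other genes differ far less.

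HEMA1 (AT1G58290) encodes the main glutamyl-tRNA reductase of green tissue, the enzyme that commits glutamate to the pathway. Its footprints were 978.5 and 1034 CPM in blue light, against 60.2 and 65.1 CPM in the dark, from 4443 and 3550 counts in blue light and 186 and 222 in the dark. The groups were wide apart, with a log2 fold change of 4.003 ± 0.09 (SE, edgeR adjusted p = 1.53e-24), the 73rd highest of 15788 genes. HEMA1 mRNA was 404 and 432.5 CPM in blue light, against 21.5 and 52.8 CPM in the dark, and its log2 fold change was 3.47 ± 0.32 (edgeR adjusted p = 7.50e-09). The dark mRNA value rested on 17 and 45 counts, and the fold change was 2.92 without dark mRNA replicate 1 and 4.27 without dark mRNA replicate 2, called in either case.

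HEMA2 (AT1G09940) encodes a second glutamyl-tRNA reductase, known mainly from roots and other non-green tissue. Its footprints were 47.8 and 45.2 CPM in blue light, against 13.9 and 15.2 CPM in the dark, a log2 fold change of 1.67 ± 0.16 (edgeR adjusted p = 6.26e-10). In mRNA it was counted 15 and 3 times in blue light, against 12 and 16 times in the dark. The mRNA groups overlapped, and the mRNA log2 fold change was -0.29 ± 0.62 (edgeR adjusted p = 0.929), and leaving out 1 blue mRNA library gave 0.337 (replicate 2) or -1.65 (replicate 1). HEMA2 was thus called in footprints, while its mRNA change had a 95% interval from -1.51 to 0.93.

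The next enzyme, glutamate-1-semialdehyde 2,1-aminomutase, completes ALA and is encoded by GSA1 and GSA2. GSA1 (AT5G63570) had 165 and 153 footprint CPM in blue light, against 162 and 147 CPM in the dark, and the groups overlapped. Its log2 fold change was 0.043 ± 0.085 with a 95% interval from -0.12 to 0.21 (edgeR adjusted p = 0.728). GSA1 mRNA was counted 8 and 2 times in blue light, against 6 and 21 times in the dark, too few to be tested. GSA2 (AT3G48730) had 207.5 and 213 footprint CPM in blue light, against 186 and 174 CPM in the dark, a log2 fold change of 0.22 ± 0.08 (edgeR adjusted p = 0.0250). This call was lost without footprint blue replicate 1, blue replicate 2 or dark replicate 2 (adjusted p = 0.0728, 0.107 and 0.198) and in the DESeq2 Wald test (0.168). GSA2 mRNA was 26.1 and 31.1 CPM in blue light, against 8.86 and 9.39 CPM in the dark, from 18 and 18 counts in blue light and 7 and 8 in the dark. The groups did not overlap, yet the mRNA log2 fold change of 1.62 ± 0.54 missed the threshold (edgeR adjusted p = 0.105). The products of GSA1 and GSA2 are close copies, and reads that match both could be counted at either, so their single values are uncertain. Whether reads were shared between copies was not tested, for this pair or for HEMA1 and HEMA2 or HEME1 and HEME2.

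In the steps that build the ring, HEMC rose in footprints, and HEMB1 and HEMD were not called. HEMB1 (AT1G69740), ALA dehydratase, joins a pair of ALA molecules into porphobilinogen. Its footprints were 205.5 and 218.5 CPM in blue light, against 237 and 233 CPM in the dark, with both blue-light libraries below both dark ones. The log2 fold change was -0.15 ± 0.08 (edgeR unadjusted p = 0.0582, adjusted p = 0.124), and -0.10 without footprint blue replicate 1. HEMC (AT5G08280), porphobilinogen deaminase, links porphobilinogens into a linear chain. It had 433 and 454 footprint CPM in blue light, against 362 and 349 CPM in the dark, a log2 fold change of 0.32 ± 0.07 (edgeR adjusted p = 5.33e-04) that was called without any of the 4 footprint libraries (0.291 to 0.357). HEMC mRNA was 94.2 and 91.7 CPM in blue light, against 43.0 and 47.0 CPM in the dark. Its mRNA log2 fold change of 1.04 ± 0.32 missed the threshold in edgeR (adjusted p = 0.0727) and passed in limma-voom (adjusted p = 0.0377).

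HEMD (AT2G26540), uroporphyrinogen III synthase, closes the ring. It had the fewest footprint counts of the 10 genes over the 4 libraries, with 19.4 and 14.0 CPM in blue light, against 23.0 and 17.6 CPM in the dark. The groups overlapped, and the log2 fold change of -0.25 ± 0.20 had a 95% interval from -0.63 to 0.14 (edgeR adjusted p = 0.35). That value rested on single libraries: it was -0.522 and -0.0512 without footprint blue replicate 1 or 2, and -0.0371 and -0.428 without dark replicate 1 or 2. HEMD mRNA was 15.9 and 27.7 CPM in blue light, against 12.7 and 9.39 CPM in the dark, and HEMB1 mRNA 42.01 and 34.6 CPM in blue light, against 12.7 and 36.4 CPM in the dark. Neither mRNA change was called, at log2 fold changes of 0.96 ± 0.59 for HEMD and 0.63 ± 0.45 for HEMB1 (edgeR adjusted p = 0.536 and 0.645). The HEMB1 value was 0.0215 and 1.59 without dark mRNA replicate 1 or 2, and the HEMD value 0.518 without blue mRNA replicate 2.

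Uroporphyrinogen III decarboxylase takes the ring past the point where siroheme branches off, and both of its genes rose in footprints. HEME1 (AT3G14930) had 120 and 140 footprint CPM in blue light, against 67.3 and 58.9 CPM in the dark, a log2 fold change of 1.04 ± 0.11 (edgeR adjusted p = 2.64e-09). HEME1 mRNA was counted 2 and 10 times in blue light, against 7 and 6 times in the dark, and was not tested. HEME2 (AT2G40490) had 198 and 168 footprint CPM in blue light, against 147 and 140 CPM in the dark, a log2 fold change of 0.36 ± 0.09 (edgeR adjusted p = 0.00164). Without footprint blue replicate 1 the HEME2 value was 0.234 and its call was lost (adjusted p = 0.102). HEME2 mRNA was 33.3 and 51.9 CPM in blue light, against 11.4 and 20.0 CPM in the dark, and its log2 fold change of 1.41 ± 0.46 missed the threshold (edgeR adjusted p = 0.0976).

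HEMF1 (AT1G03475, listed as LIN2), coproporphyrinogen III oxidase, forms protoporphyrinogen, and its loss gives the lesion mutant lin2. It had 172 and 174 footprint CPM in blue light, against 188 and 160 CPM in the dark. The blue-light values lay between the dark ones, and the log2 fold change of -0.0060 ± 0.0855 had a 95% interval from -0.17 to 0.16 (edgeR adjusted p = 0.966). HEMF1 mRNA was 68.1 and 88.2 CPM in blue light, against 34.2 and 58.7 CPM in the dark, a log2 fold change of 0.74 ± 0.35 (edgeR adjusted p = 0.35) that was 0.347 and 1.18 without dark mRNA replicate 1 or 2.

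**Figure D2:**
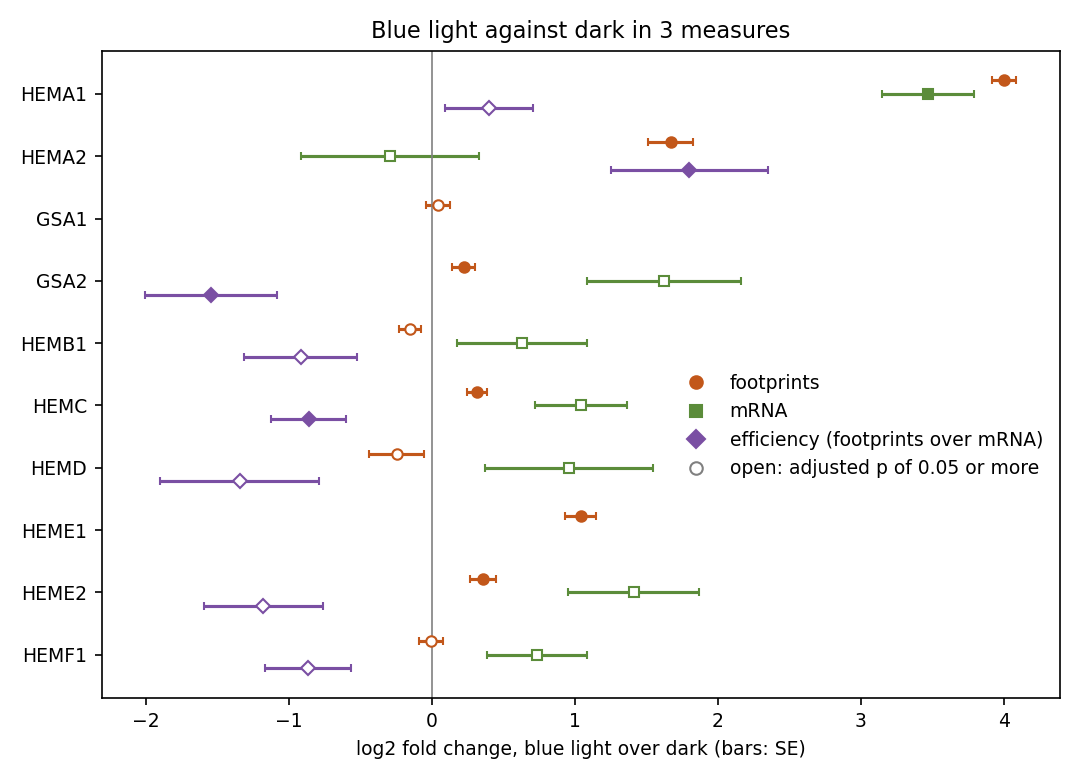
Log2 fold change of blue light over dark, on the horizontal axis, with its SE, for each gene in footprints (circles), mRNA (squares) and efficiency (diamonds); filled symbols have an adjusted p under 0.05, and GSA1 and HEME1 were tested in footprints only. HEMA1 stands at 4.003 in footprints and 3.47 in mRNA, while GSA2, HEMB1, HEMC, HEMD, HEME2 and HEMF1 have larger fitted changes in mRNA than in footprints.

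Levels of different genes were compared as CPM per 100 codons of the counted region. In dark footprints HEMC had the highest such level, at 95.3 ± 2.42 (SD, n = 2), followed by HEMB1 at 55.8 ± 0.78 and HEMF1 at 46.1 ± 5.39. GSA2 at 38.9 ± 1.76 and HEME2 at 37.3 ± 1.35 came next and overlapped between libraries, and GSA1 followed at 33.3 ± 2.27. HEME1 at 15.4 ± 1.44, HEMA1 at 11.7 ± 0.65, HEMD at 6.50 ± 1.22 and HEMA2 at 2.80 ± 0.18 closed the order, and the libraries of these 4 did not overlap. HEMA1 was therefore the 8th of 10 in dark footprints.

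In blue-light footprints HEMA1 was the 1st, at 188 ± 7.38 CPM per 100 codons (SD, n = 2), ahead of HEMC at 119 ± 3.87. HEMB1 at 50.4 ± 2.19, HEME2 at 47.5 ± 5.49, HEMF1 at 45.9 ± 0.40 and GSA2 at 45.4 ± 0.80 each overlapped the next in their library values, as did GSA1 at 34.2 ± 1.86 and HEME1 at 31.8 ± 3.44. HEMA2 at 8.92 ± 0.36 and HEMD at 5.35 ± 1.22 were the lowest. HEMA1 made up 32.7% ± 0.76 of the summed footprint level of the 10 genes in blue light and 3.43% ± 0.35 in the dark (SD, n = 2), and 47.8% ± 1.12 of their summed mRNA level in blue light and 11.98% ± 3.77 in the dark. The other 9 genes together had 388 ± 1.77 footprint CPM per 100 codons in blue light and 331 ± 16.4 in the dark.

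Summed over gene copies, glutamyl-tRNA reductase had 197 ± 7.02 footprint CPM per 100 codons in blue light and 14.5 ± 0.83 in the dark (SD, n = 2), a ratio of 13.6. Uroporphyrinogen III decarboxylase had 79.4 ± 2.05 in blue light and 52.7 ± 2.79 in the dark, a ratio of 1.51, and porphobilinogen deaminase 119 ± 3.87 and 95.3 ± 2.42, a ratio of 1.25. The remaining 4 steps had ratios of 0.823 to 1.10. In the dark the reductase level was the lowest of the 7 steps except for uroporphyrinogen III synthase, and in blue light it was the highest. In mRNA the step ratios were 7.92 for the reductase and 1.43 to 2.25 for the other 6.

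**Figure D3:**
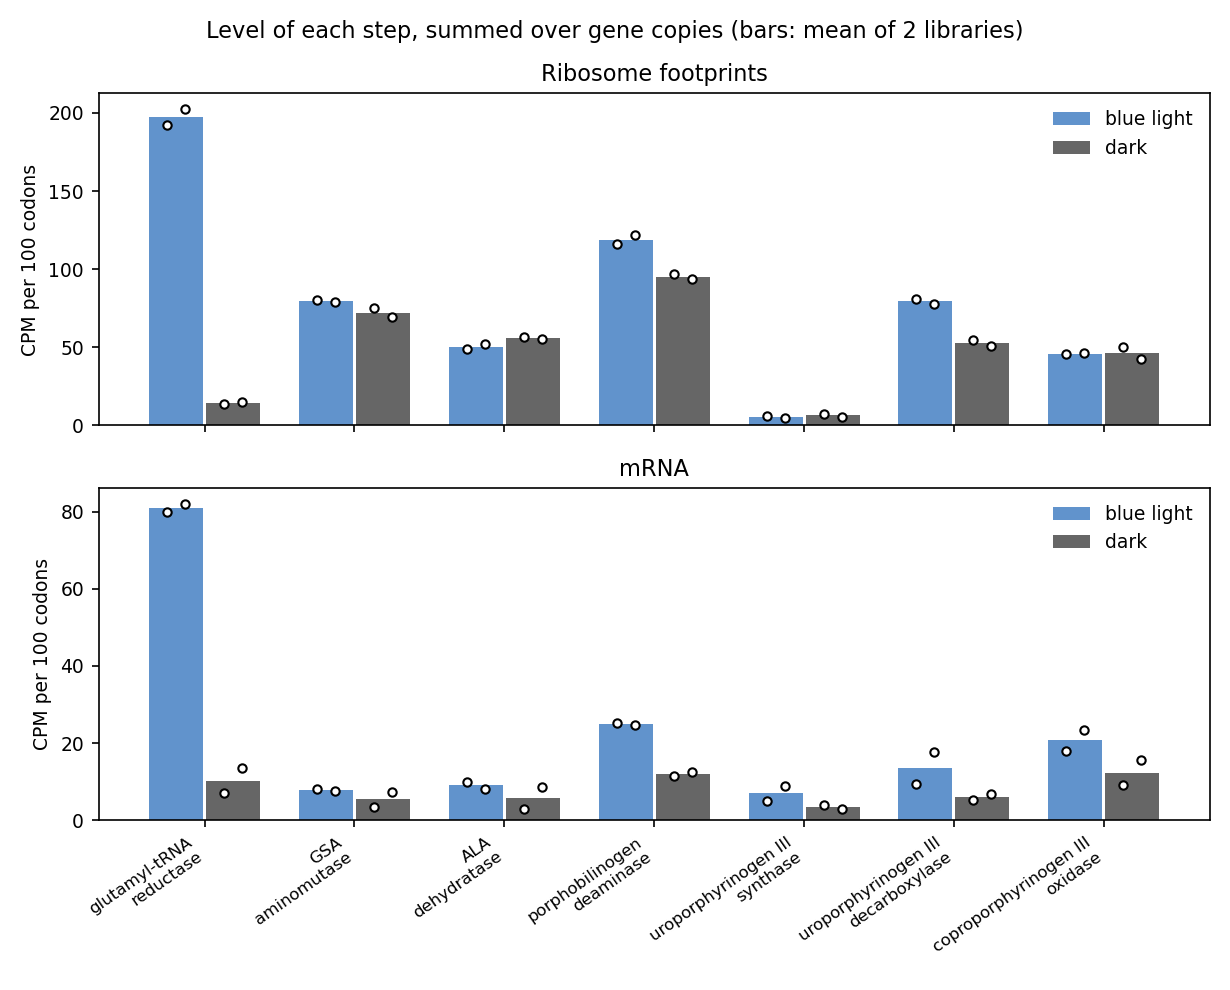
Level of each of the 7 steps in pathway order, as CPM per 100 codons summed over the copies of a step, in blue light and in the dark, with footprints above and mRNA below; bars are means of 2 libraries and open points the libraries. The first step stands at 197 in blue-light footprints against 14.5 in the dark, and the other steps change little by comparison.

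In 3 pairs of genes that encode the same step, the balance of the copies was followed as a log2 ratio within each library (6 comparisons). HEMA1 over HEMA2 was 4.31 and 4.47 in blue-light footprints, against 2.04 and 2.02 in dark footprints, a difference of 2.36. HEME1 over HEME2 was -0.80 and -0.35 in blue-light footprints, against -1.21 and -1.33 in dark footprints, a difference of 0.69 (0.465 to 0.92 with 1 library left out). For GSA1 over GSA2 the footprint ratios were -0.33 and -0.48 in blue light, against -0.20 and -0.24 in the dark, a difference of -0.18 (-0.112 without footprint blue replicate 2). In each pair the blue-light and dark values did not overlap. With 2 libraries against 2 the exact two-sided permutation test cannot give less than p = 0.333, which was its value in all 6 comparisons (also after adjustment over the 6), so none is past a threshold.

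In shares per codon, HEMA2 held 4.52% ± 0.34 of the reductase footprints in blue light and 19.3% ± 0.14 in the dark (SD, n = 2). HEME2 held 59.8% ± 5.37 of the decarboxylase footprints in blue light and 70.8% ± 1.19 in the dark, and GSA2 57.0% ± 1.76 of the aminomutase footprints in blue light and 53.9% ± 0.57 in the dark. In mRNA the shares were more scattered, since HEMA2, GSA1, GSA2 and HEME1 had 2 to 21 counts per library. HEMA2 held 3.22% ± 2.83 of reductase mRNA in blue light and 34.3% ± 10.8 in the dark. The mRNA log2 ratios differed between blue light and dark by 4.24 for HEMA1 over HEMA2, by -2.64 for GSA1 over GSA2 and by -1.54 for HEME1 over HEME2. Leaving out 1 mRNA library gave -3.57 to -1.71 for GSA1 over GSA2, with -1.71 without blue mRNA replicate 2, and -2.42 to -0.665 for HEME1 over HEME2, with -0.665 and -2.42 without blue replicate 1 or 2 and -0.997 without dark replicate 1.

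**Figure D4:**
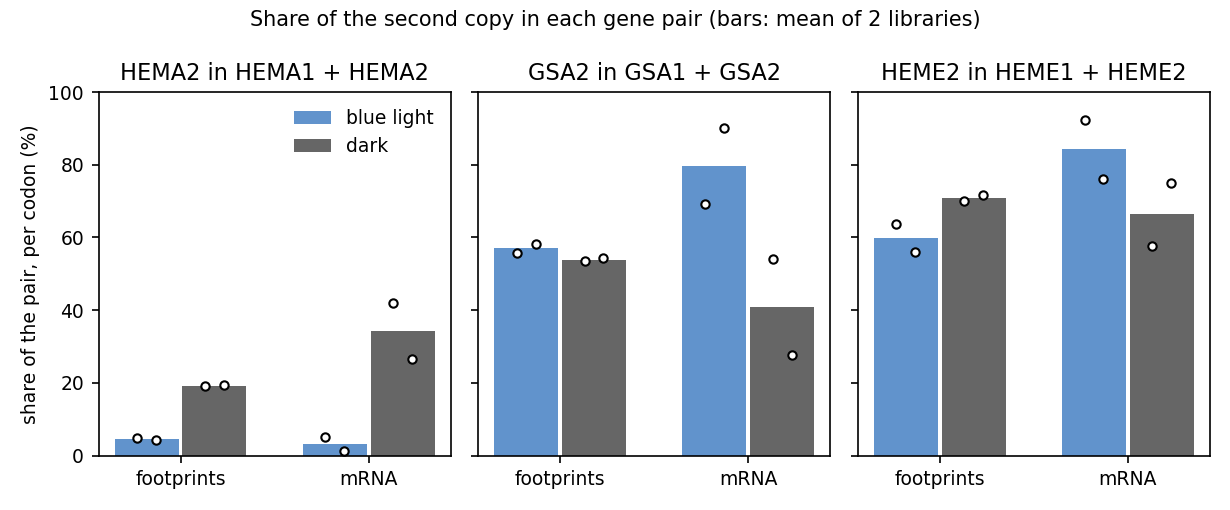
Share of the second copy in each pair of genes, in percent per codon, for footprints and mRNA in blue light and in the dark; bars are means of 2 libraries and open points the libraries. HEMA2 held 4.52% of reductase footprints in blue light and 19.3% in the dark, and the mRNA shares of the other pairs scatter widely.

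The change of translational efficiency in blue light, the difference between the light response of footprints and that of mRNA, could be tested in 8 members. GSA2 and HEMD entered this test through their blue-light mRNA counts. HEMA2 rose by 1.802 ± 0.55 on the log2 scale, and GSA2 and HEMC had log2 fold changes of -1.54 ± 0.46 and -0.86 ± 0.26, both called as falls (SE, edgeR adjusted p = 0.0352, 0.0322 and 0.0348). This is 3 of 8 called against 10.1% of 6169 tested genes, 1 upward against 5.2% and 2 downward against 4.93%. HEMA1 had a value of 0.40 ± 0.31 (edgeR adjusted p = 0.459), which was 0.921 and called without dark mRNA replicate 1 (adjusted p = 0.0493) and -0.412 without dark mRNA replicate 2. The genes HEMB1, HEMD, HEME2 and HEMF1 had values of -0.92, -1.34, -1.18 and -0.86 that were not called (edgeR adjusted p = 0.148, 0.130, 0.0730 and 0.0645). Without dark mRNA replicate 2, HEMB1 at -1.89 and HEMF1 at -1.32 were called (adjusted p = 0.0125 and 0.02), and without dark mRNA replicate 1 they were at -0.336 and -0.504 and not called. HEMD was at -0.873 without blue mRNA replicate 2. HEME2 was called without blue mRNA replicate 1 (-1.47, adjusted p = 0.0464) and in the DESeq2 Wald test (adjusted p = 0.0431), and HEMF1 with a minimum mean of 10 CPM (adjusted p = 0.0432). The median of the 8 was -0.89, against -0.055 over all tested genes.

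None of the 3 efficiency calls held under every alternative. The efficiency test shares 1 spread between assays, with a common dispersion of 0.00442, against 0.0522 in the mRNA test, and for HEMC its SE of 0.261 was smaller than the SE of 0.323 of the mRNA change alone. When the spread was taken separately in each assay, an alternative chosen after seeing these values, HEMA2 was called at 1.962 ± 0.64 (adjusted p = 0.0302, Wald test on the edgeR fits), while GSA2 at -1.40 ± 0.54 and HEMC at -0.72 ± 0.33 were not (adjusted p = 0.0858 and 0.167). GSA2 and HEMC lost their calls without any one of the 8 libraries (adjusted p from 0.0669 to 0.151 and from 0.0548 to 0.128). HEMA2 was called without blue mRNA replicate 1, at 3.26, and lost its call without each of the other 7 libraries (adjusted p from 0.0527 to 0.159), with 1.23 without blue mRNA replicate 2.

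The footprint level over the mRNA level, fitted in each light and given as a log2 distance from the median of all tested genes, differed between members. GSA2 stood at 2.20 in blue light and 3.81 in the dark, HEMB1 at 1.76 and 2.75, HEMC at 1.56 and 2.50, and HEME2 at 1.45 and 2.69, with SEs of 0.16 to 0.27. HEMF1 stood at 0.47 in blue light and 1.41 in the dark. HEMA1 stood at 0.58 in blue light and 0.25 in the dark (SE 0.14 and 0.27), and HEMA2 at 1.03 and -0.70 (SE 0.38 and 0.39). HEMD stood at -1.02 in blue light and 0.39 in the dark (SE 0.39 and 0.42). All of these SEs come from the fit with the spread shared between assays.

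Genes further along the pathway and around it were taken from a list of 33. In footprints 19 of its 29 tested members rose and 3 fell, against 20.9% upward and 16.9% downward of all tested genes. The median log2 fold change of the 29 was 0.59, against -0.018 over all tested genes. In mRNA 6 of 20 rose and none fell (edgeR, 8 with an unadjusted p under 0.05), against 2.85% and 1.05%. The mRNA median was 0.50, against 0.026. CHLH, a subunit of magnesium chelatase, the first enzyme of the chlorophyll branch, rose by 3.38 ± 0.07 in footprints, CAO, which makes chlorophyll b, by 3.21 ± 0.09, GUN4, which activates the chelatase, by 2.74 ± 0.08, and CHLP, a geranylgeranyl reductase, by 2.52 ± 0.07. HEMA1 had a larger footprint change than any of the 29. The 3 that fell, named after their values were seen, were HY1, a heme oxygenase, at -0.60 ± 0.08, and the protochlorophyllide reductases PORA at -0.55 ± 0.06 and PORB at -0.51 ± 0.06. In mRNA CHLH, CHLP, the chelatase subunit CHLI1 and the cyclase subunit CRD1 led, at 4.25, 2.53, 2.35 and 2.15. In efficiency 2 of 19 rose and 5 fell, against 5.2% upward and 4.93% downward of all tested genes. The largest called values were in PORB at -1.73, CHLI1 at -1.66, LCAA at 1.45 and HY1 at -1.22. In each of these genes the efficiency SE was below that of the mRNA change alone, as in HY1 at 0.386 and 0.446. The efficiency calls of this list rest on the spread shared between assays, and the alternatives were read for the members only.

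Genes for proteins that act around the ALA step had smaller fitted changes than HEMA1. GluRS, which charges the tRNA with glutamate, rose by 0.59 ± 0.11 in footprints, FLU, a repressor of glutamyl-tRNA reductase, by 0.34 ± 0.11 (edgeR adjusted p = 0.0117), and GBP, which binds the reductase, by 0.34 ± 0.11 (edgeR adjusted p = 0.0201). These 3 were singled out after their values were seen. Further copies of the members had few footprints. HEMA3 had 0 and 1 footprint counts in blue light and 0 and 0 in the dark, and HEMB2 had 5 and 1 in blue light and 1 and 0 in the dark, against 10 and 10 mRNA counts in blue light and 7 and 17 in the dark. HEMF2 had 22 and 18 footprint counts in blue light and 10 and 18 in the dark, with a log2 fold change of 0.22 ± 0.35 (edgeR adjusted p = 0.660).

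Ranked by distance to HEMA1 over the 8 libraries, on log2 CPM centred within each assay, the nearest of 3309 genes with a symbol were LHCA1, PDX1.1, CAB3, RPT2 and LHCB3, at distances of 0.363, 0.444, 0.981, 0.990 and 0.991. Their footprints were 1599 CPM in blue light and 124.5 CPM in the dark for LHCA1, an antenna protein of photosystem I, and 803 and 39.1 CPM for PDX1.1, of vitamin B6 synthesis. CAB3 and LHCB3 are antenna proteins of photosystem II, and RPT2 acts in phototropism. Nearness here rests on 2 conditions, so it says only that the size and direction of the change were alike.

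In the order of genes of the TAIR10.1 reference, 2 members lie beside a heme oxygenase gene and 1 lies near one, a position the choice of members did not use. HEMA1 is next to HO4 and HEMD next to HO2, and 1 protein-coding gene lies between HEMB1 and HO3. HO4 had 17 and 15 footprint counts in blue light, against 13 and 19 in the dark, HO2 had 32 and 30 in blue light, against 25 and 37 in the dark, and HO3 had 4 and 6 in blue light, against 9 and 8 in the dark. Neither HO4 nor HO2 was called (log2 fold changes of -0.29 ± 0.35 and -0.29 ± 0.26, edgeR adjusted p = 0.557 and 0.419), although HEMA1 beside HO4 rose by 4.003. In the same reference HEMC overlaps AT5G08270, which had 6 to 15 footprint counts per library, and HEME1 overlaps AT3G14920, which had 138 to 228. HEMC also overlaps the long non-coding RNA gene AT5G01545. Whether counting used the strand is not given in the sources used here, so reads in such overlaps cannot be told apart.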

How the data were processed

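The authors deposited whole-number read counts per transcript model, 1 file per library, with no normalization. Per the submitters' processing notes, CASAVA 1.8, Bowtie2 2.1.0, TopHat2 2.0.9 and build TAIR10 were used; the counting tool is not given in the sources used here. Another deposited column, the same in all files, resembles the counted length in codons and served to choose 1 model per locus (the longest) and to scale levels by length. Symbols came from a TAIR10.1 table by locus tag (26719 of 27416 loci matched).

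Blue light was compared with dark in R 4.3.3 with edgeR 4.0.16 (TMM, filterByExpr at a minimum count of 10, quasi-likelihood F-test, two-sided, all genes fitted), separately in mRNA and footprints, and as their interaction. CPM use TMM-scaled library sizes. The SE is the absolute log2 fold change divided by the square root of F, and 95% intervals are 1.96 SE either side. Paralogue ratios used a pseudocount of 0.5 CPM. The fits were checked on simulated counts. For efficiency these were drawn with the spread shared between assays, so the check cannot judge that sharing. Alternatives used DESeq2 1.42.0 and limma 3.58.1, among others. Members and lists were chosen with earlier results of these data known. All members are named, with up to 4 called genes of the wider list per test, further copies of members, and the 5 genes nearest HEMA1; other genes named (those of the wider list that fell in footprints, GluRS, FLU, GBP and heme oxygenase neighbours) were chosen after their values were seen. Tests of single root markers are not reported here.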

Additional observations from a re-analysis of the deposited data

Results flagged for a closer look

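In 3 of 8 members, against 10.1% of 6169 tested genes, the response to blue light differed between footprints and mRNA (edgeR interaction test). They were 1 upward, against 5.2% of genes, and 2 downward, against 4.93%. No call of the 3 held under every alternative. GSA2 and HEMC lost theirs with a separate spread in each assay (adjusted p = 0.0858 and 0.167), and HEMA2 and HEMC with the replicate block (adjusted p = 0.0592 and 0.0588). With no filter on low counts GSA2 and HEMC also lost theirs (edgeR adjusted p = 0.127 and 0.188). HEMC further lost its call in limma-voom (adjusted p = 0.0502) and in edgeR on nuclear loci only (adjusted p = 0.0691). The footprint change minus the mRNA change was 1.802 for HEMA2, -1.54 for GSA2 and -0.861 for HEMC on the log2 scale. HEMA2 combined a footprint change of 1.67 with an mRNA change of -0.29, GSA2 a footprint change of 0.22 with an mRNA change of 1.62, and HEMC 0.32 with 1.04. The mRNA values rest on 3 to 18 counts per library for HEMA2 and GSA2 and on 34 to 65 for HEMC. GSA2 passed the mRNA filter only through its blue-light libraries, where its counts were higher.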

How the results depend on the processing

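The count of called members in footprints (6) was 5 or 6 under the planned settings and 4 to 6 with 1 library left out, with HEMA1, HEMA2, HEMC and HEME1 called throughout. In mRNA the count of 1 was 2 with limma-voom and 1 otherwise. In efficiency the count of 3 was 1 with no filter on low counts, 1 with the replicate block and 1 with a separate spread in each assay, 2 to 4 under the other planned settings, and 0 to 2 with 1 library left out, and the called genes changed: HEMB1 and HEMF1 without dark mRNA replicate 2, HEMA1 without dark mRNA replicate 1, HEMA2 and HEME2 without blue mRNA replicate 1, and 0 without any other library. The block kept GSA2 and left mRNA and footprint counts at 1 and 6. Within an assay, the deviations of same-numbered blue-light and dark libraries had correlations of 0.0264 in mRNA and 0.0055 in footprints. The numbers were therefore not taken as pairs of blue light and dark. Whether mRNA and footprint libraries of the same number and light were paired was not tested, and the efficiency test treated them as unpaired. Directions that reversed were those of uncalled values: HEMA2 mRNA (-1.65 to 0.337 over left-out libraries) at 0.337 without blue mRNA replicate 2, HEMF1 footprints (-0.119 to 0.127) at 0.00665 with no filter and at 0.0084 and 0.127 without footprint blue or dark replicate 1, GSA1 footprints (-0.022 to 0.124) at -0.0116 and -0.022 without footprint blue replicate 1 or dark replicate 2, and HEMA1 efficiency at -0.412 without dark mRNA replicate 2. Paralogue ratios kept their direction under every pseudocount, model choice and left-out library: with 1 library left out they spanned 3.21 to 5.27 and 2.27 to 2.44 for HEMA1 over HEMA2, -3.57 to -1.71 and -0.258 to -0.112 for GSA1 over GSA2, and -2.42 to -0.665 and 0.465 to 0.92 for HEME1 over HEME2, in mRNA and footprints in turn. Shares of dark footprints from unscaled counts were 18.88% for HEMA2 and 69.49% for HEME2. The DESeq2 Wald test gave no adjusted p for HEMA2, GSA2 and HEMD in mRNA. It called 3264 genes in footprints, against 5975 in edgeR, and leaving out 1 footprint library left 329 to 383 efficiency calls, against 625. Depth limits mRNA, where GSA1 and HEME1 were too low to test. Other size factors were not run for paralogue ratios. With a library left out, the lone library of its group is assumed to vary like the other group, and the cause of the moves was not tested.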
